A study of Mus musculus with 24 samples.

Results

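The chromatin around 9 genes linked to the memory B cell fate (Bach2, Hhex, Klf2, Zbtb20, Zbtb32, Tle3, Ski, Cd38 and Nt5e) was examined in germinal center (GC) B cells. All consensus ATAC-seq peaks that overlapped the GENCODE M21 gene body of each gene, extended by 50 kb on each side (mm10), were taken as its locus. This gave 227 of the 65483 peaks, and no peak lay in the windows of more than 1 of these genes. The Bach2 locus held 90 peaks, Zbtb20 55, Klf2 and Cd38 15 each, Tle3 12, Hhex and Zbtb32 11 each, Nt5e 10 and Ski 8. The longest gene bodies, those of Bach2 and Zbtb20 at 347305 and 766722 bp, supplied most of the peaks. The counts did not otherwise follow gene length, as Klf2, the shortest at 2624 bp, held more peaks than Ski at 68518 bp.

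ATAC-seq reads mark DNA that a transposase can reach, so a peak's count measures how open a stretch of chromatin is. GC B cells were sorted from spleens of mice immunized with sheep red blood cells (SRBC) 10 days earlier, with 60000 live cells per library and 1 library per mouse. All mice, WT included, carried Cg1Cre+/-, a Cre driven from the Cγ1 locus that acts in B cells as they respond in the GC. The WT group (4 mice) had no floxed allele, C (4 mice) was Crebbp fl/+, K (4 mice) was Kmt2d fl/+, and CK (5 mice) carried both, so each mutant kept 1 intact allele of each targeted gene. The mice were 8 weeks old. Crebbp encodes a histone acetyltransferase and Kmt2d a histone H3 lysine methyltransferase, and both act at enhancers. The sorted centroblast and centrocyte libraries of the series were not analysed here.

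During the GC reaction, B cells either return to cycling in the dark zone, leave as plasma cells, or become quiescent memory B cells that re-express surface proteins shut off in the GC. BACH2, HHEX and KLF2 are transcription factors tied to the memory or resting state, and ZBTB20 and ZBTB32 are zinc finger repressors of the activated and memory B cell program. TLE3 and SKI are corepressors, and TLE3 is a binding partner of HHEX. CD38 and CD73 (encoded by Nt5e) are surface enzymes. Mouse GC B cells carry little CD38, whereas naive and memory B cells carry much of it.

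Each library had 17483706 to 21857738 fragments in peaks, and the median member peak had 75 fragments per library against 85 for all peaks. Fragments on the Y chromosome, counted over 11 peaks, were found at 73.8 to 85.2 CPM (counts scaled to a total of 1e6) in 9 of the 17 libraries and at 0 or 1 fragment in the other 8. The libraries with this signal were 2 of 4 in WT, 2 of 4 in C, 3 of 4 in K and 2 of 5 in CK. The study describes these mice as female, so these libraries go against that description, and the called sites are also counted within each class of library. The start peaks of Crebbp and Kmt2d did not check the labels, as the files do not show where the deleted parts lie. Crebbp gave 38.3 to 42.7 CPM in WT, 36.4 to 40.6 in C, 40.8 to 47.1 in K and 43.2 to 46.7 in CK. Kmt2d gave 39.6 to 45.2 CPM in WT, 39.8 to 42.8 in C, 40.0 to 45.8 in K and 42.7 to 46.5 in CK. The start peak of the GC gene Bcl6 had 26.8 to 36.2 CPM over all libraries, which alone does not identify the cell type. None of the 4 T cell genes (Cd3e, Cd3g, Cd4, Cd8a) had a peak at its start, and of 4 myeloid genes Lyz2 and Itgam had none, while Csf1r had 0.923 to 2.27 CPM and Cd14 4.15 to 6.77 over all libraries. In bulk samples, fewer cells of a type and less open chromatin per cell cannot be told apart.

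Sequences at the center of 6 peaks are shown first, because they are called peaks at gene starts or on the flanks of a gene, with more signal than the other called sites. Each is 300 bases of the GRCm38.p6 plus strand (RefSeq), in lower case, with CG dinucleotides, the sites of DNA methylation, in capitals. The peak 5′ of Bach2, at chr4:32229036-32229335, and the peak at an inner Bach2 start, at chr4:32249280-32249579, read as follows.
Bach2 upstream: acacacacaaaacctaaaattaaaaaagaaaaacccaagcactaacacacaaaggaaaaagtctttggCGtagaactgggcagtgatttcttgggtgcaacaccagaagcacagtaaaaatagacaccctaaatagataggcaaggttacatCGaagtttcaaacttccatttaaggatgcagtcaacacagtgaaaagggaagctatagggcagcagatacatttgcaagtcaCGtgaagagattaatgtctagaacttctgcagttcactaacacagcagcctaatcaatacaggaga
Bach2 inner start: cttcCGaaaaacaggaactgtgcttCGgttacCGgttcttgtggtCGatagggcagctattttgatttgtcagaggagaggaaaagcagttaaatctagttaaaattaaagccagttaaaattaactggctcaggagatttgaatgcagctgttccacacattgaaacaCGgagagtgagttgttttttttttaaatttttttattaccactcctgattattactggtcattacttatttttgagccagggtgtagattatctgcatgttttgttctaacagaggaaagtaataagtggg

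Those of the Zbtb32 start peak, at chr7:30593760-30594059, and the peaks on either side of Cd38, at chr5:43854523-43854822 and chr5:43948141-43948440, were as follows.
Zbtb32 start: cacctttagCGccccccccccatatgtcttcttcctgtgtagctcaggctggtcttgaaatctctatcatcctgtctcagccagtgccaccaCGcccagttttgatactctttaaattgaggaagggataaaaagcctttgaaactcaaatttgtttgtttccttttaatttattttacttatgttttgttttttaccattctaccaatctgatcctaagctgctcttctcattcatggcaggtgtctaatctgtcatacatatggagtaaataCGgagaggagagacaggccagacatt
Cd38 upstream: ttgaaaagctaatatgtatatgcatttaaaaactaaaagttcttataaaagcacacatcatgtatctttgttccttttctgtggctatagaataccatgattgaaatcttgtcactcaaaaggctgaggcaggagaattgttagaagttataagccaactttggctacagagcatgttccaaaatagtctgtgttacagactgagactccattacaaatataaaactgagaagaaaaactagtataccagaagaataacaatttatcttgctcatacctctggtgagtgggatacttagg
Cd38 downstream: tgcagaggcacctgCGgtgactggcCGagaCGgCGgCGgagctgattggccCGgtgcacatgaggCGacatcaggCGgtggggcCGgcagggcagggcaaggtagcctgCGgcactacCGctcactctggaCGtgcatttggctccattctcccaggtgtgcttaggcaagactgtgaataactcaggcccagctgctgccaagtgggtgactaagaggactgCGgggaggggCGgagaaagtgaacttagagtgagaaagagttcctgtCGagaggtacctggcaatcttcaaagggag

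The last is the start peak of Ski, at chr4:155222697-155222996.
Ski start: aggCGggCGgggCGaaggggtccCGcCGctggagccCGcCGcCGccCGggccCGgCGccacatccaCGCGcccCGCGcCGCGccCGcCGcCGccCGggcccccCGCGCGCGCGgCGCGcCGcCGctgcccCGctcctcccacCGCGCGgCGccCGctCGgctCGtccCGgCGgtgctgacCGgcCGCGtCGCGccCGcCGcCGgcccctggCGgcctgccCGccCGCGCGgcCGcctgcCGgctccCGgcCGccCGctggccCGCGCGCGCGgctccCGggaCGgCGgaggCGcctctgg

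The Ski center held 67 CG dinucleotides, against a median of 4 over all peaks, and the whole Ski peak was 71.3% G and C. The other 5 centers held 0 (Cd38 upstream), 3 (Bach2 upstream and Zbtb32), 5 (Bach2 inner start) and 15 (Cd38 downstream). The share of all peaks with at least as many was 0.00305% for Ski, and 6.19% of all peaks had, like Cd38 upstream, none. The CG dinucleotides were counted after the values had been seen. The letters of 5 motifs were also searched on both strands in the central 300 bases of every peak. Among the 227 member peaks, TGANTCA (AP-1 and BACH factors) occurred in 9.25%, against 8.92% of all peaks, TTCNNNGAA (STAT and BCL6) in 7.05% against 8.22%, and GAGGAAGT (PU.1 and SPIB) in 3.08% against 5.84%. The octamer ATTTGCAT occurred in 3.52% against 4.17%, and the NF-kB letters GGGANTTTC in 0.441% against 1.18%. None of the 13 member peaks called in any comparison held any of the 5 in this window, while 25.3% of all peaks held at least 1.

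In C against WT, 0 of the 227 member peaks were called at an adjusted p under 0.01 (edgeR quasi-likelihood test, adjusted over all 65483 peaks), where 0.16% of all peaks were called. At an unadjusted p under 0.05 there were 18 member peaks (7.93%, with 8.90% of all peaks), and DESeq2 called 1. With the replicate number as a block, 1 was called (the exonic Zbtb20 site described below), where 0.325% of all peaks were. In K, 1 peak was called and closed, against 1.48% of all peaks. In CK, 12 peaks were called, or 5.29% of the members against 6.84% of all peaks. Of these, 9 closed (3.96%, with 3.3% of all peaks) and 3 opened (1.32%, with 3.54%). The share of member peaks called lay near, and below, that of all peaks. DESeq2 called 13. The unadjusted p was under 0.05 at 38 member peaks in K (16.7%, with 20.6% of all peaks) and at 47 in CK (20.7%, with 28.9%). Without WT replicate 4 the calls at these 12 peaks came down to 3, and without WT replicate 3 to 4. Leaving out any single CK mouse kept 8 to 11. The share of all peaks called by DESeq2 or with a mouse left out is not given here, so these counts have no baseline. Only 1 of the 12, the weakest peak of them all, exceeded a 1.5-fold change. In 23 of the 227 peaks (10.1%) the CK and WT mice did not overlap, against 13% of all peaks.

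Between mutants, 1 member peak was called for K against C (0.788% of all peaks) and 3 for CK against C (1.68% of all peaks), all of them lower. No member peak was called between CK and K (0.00916% of all peaks), where 13 (5.73%, with 7.35% of all peaks) had an unadjusted p under 0.05 and DESeq2 called 0. For CK against C and K added together, 0 were called (0.0107% of all peaks), 7 (3.08%, with 3.73% of all peaks) had an unadjusted p under 0.05 and DESeq2 called 0. The median log2 fold change of member peaks was 0.05 in C, -0.02 in K and -0.01 in CK, with all-peak medians of -0.00026, 0.0015 and 0.0029. In C, 38.8% of member peaks were below 0, beside 50.1% of all peaks. Against C, 63.9% were below 0 in K (median -0.06) and 67.0% in CK (median -0.08), beside 49.9% and 49.7% of all peaks. These comparisons share the C mice.

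**Figure D1:**
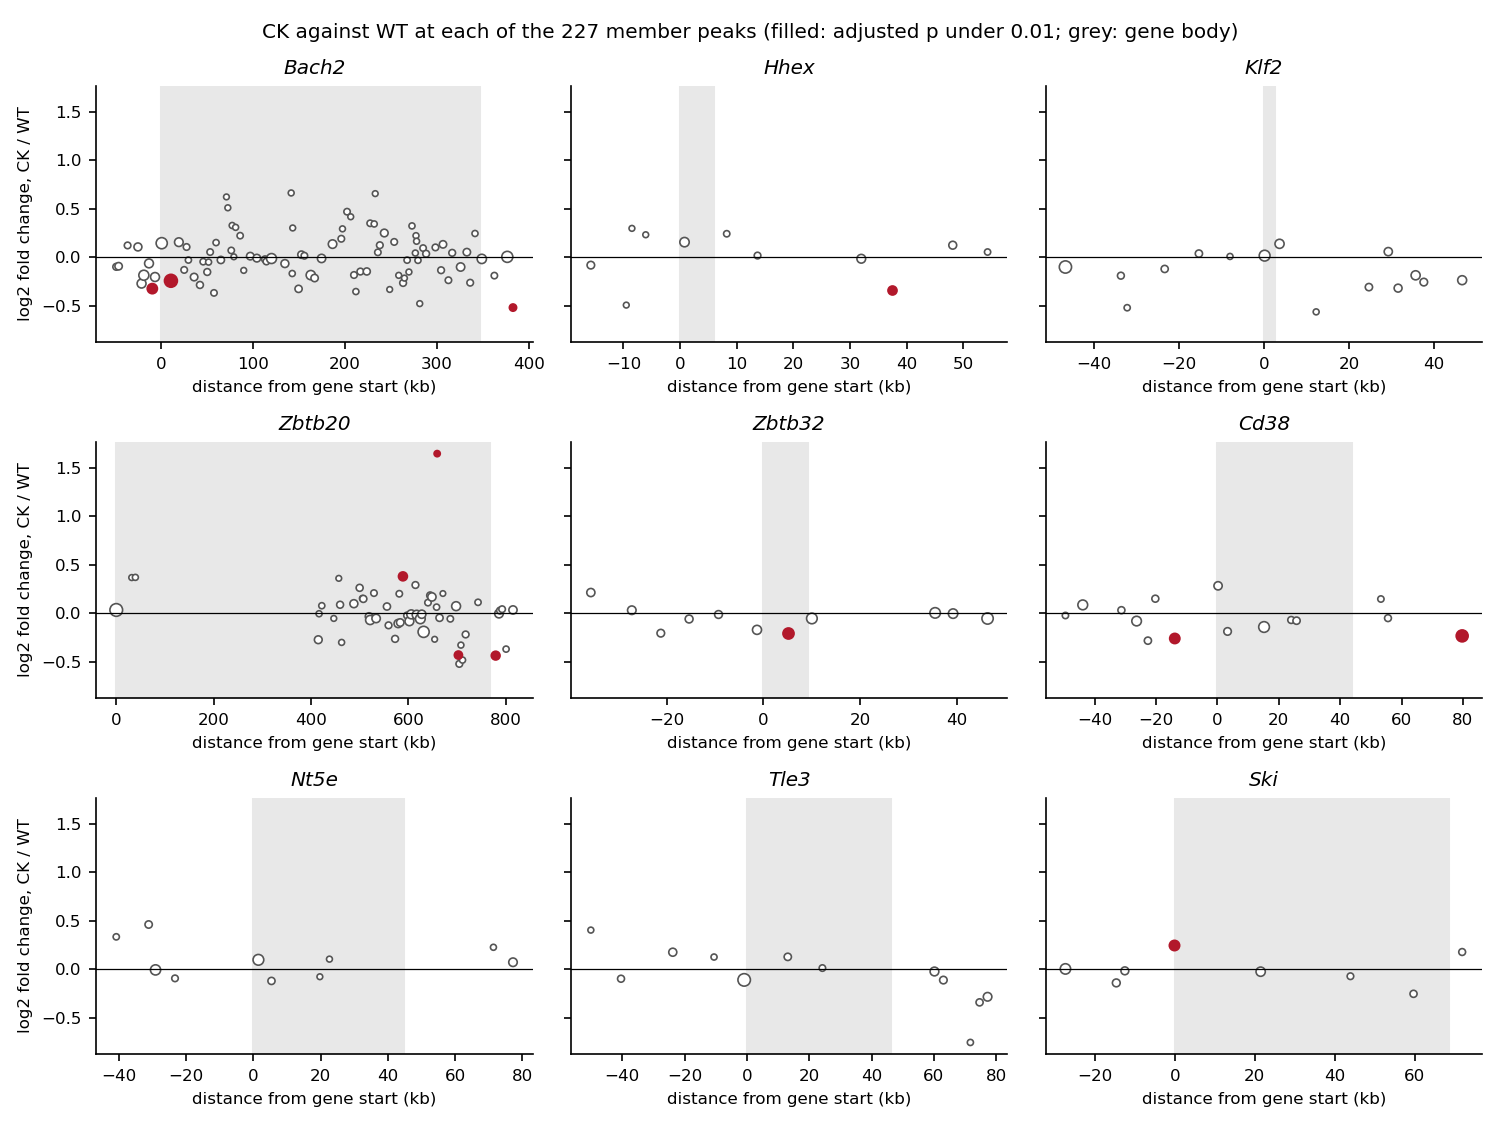
Log2 fold change of CK against WT (y axis) at each of the 227 member peaks by distance of the peak center from the gene start in kb (x axis), 1 panel per locus, with larger circles for more signal and the gene body in grey. The 12 filled circles are the called peaks, 9 below 0 and 3 above, and they lie among many open circles scattered on both sides of 0.

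The signal over whole loci moved little. No locus sum was called in C (0.426% of 18082 gene windows called), K (2.71%) or CK (11.6%) against WT by edgeR at an adjusted p under 0.01. Nor was any called for K against C (0.658% of windows), CK against C (4.05%), CK against K (0.0%) or CK against C and K added together (0.0885%). At an unadjusted p under 0.05 there was 1 locus of the 9 in C (9.96% of all windows) and 1 in K (26.9%). There was also 1 for K against C (28.5%) and 1 for CK against C (30.7%). For CK against WT there were 5 (36.4% of all windows), and in the last 2 comparisons 0 (7.75% and 2.59%). DESeq2 called 1 locus, Cd38 in CK, and 0 elsewhere, and the share of all windows it called is not given here. In CK, 7 of the 9 sums were below WT, with a median log2 fold change of -0.06, whereas 37.9% of all windows were below 0 and their median was 0.03.

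**Figure D2:**
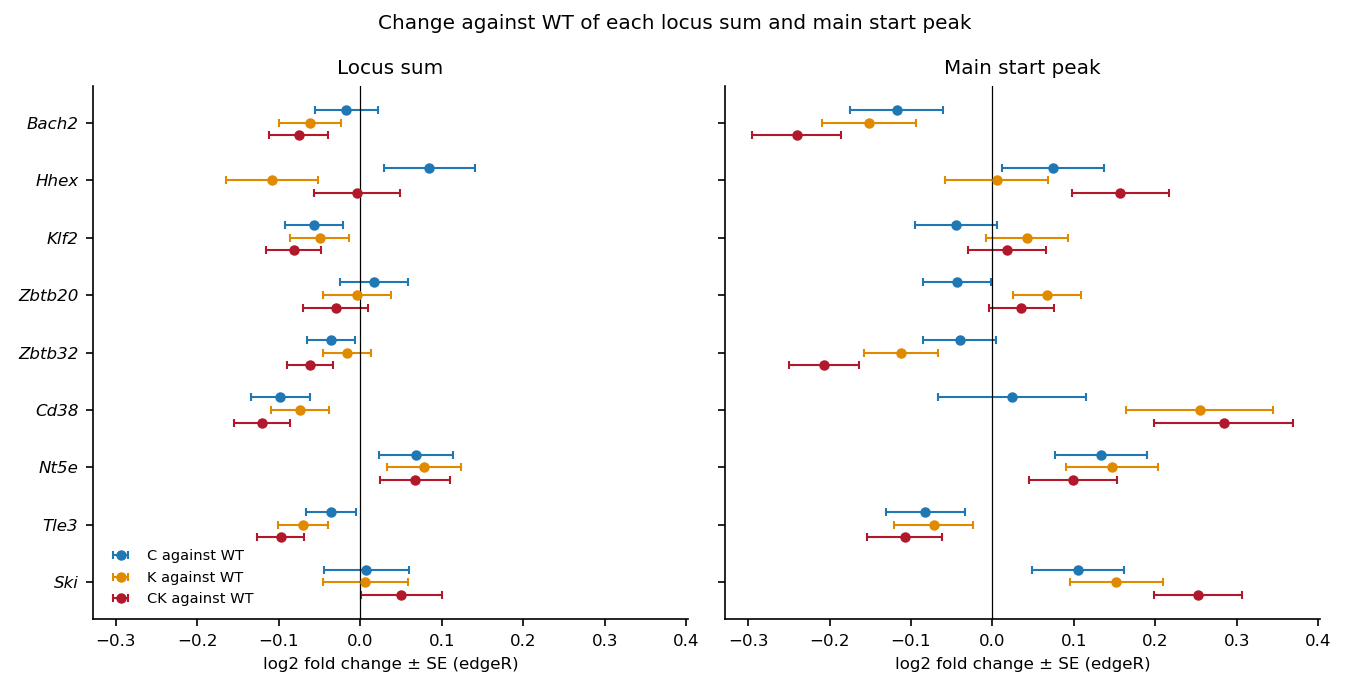
Log2 fold change against WT with its standard error (x axis, edgeR) of each locus sum (left) and main start peak (right) in C, K and CK. Locus sums lie between -0.12 (Cd38 in CK) and 0.08 (Hhex in C), and start peaks spread wider, from -0.24 for Bach2 to 0.28 for Cd38, both in CK.

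BACH2, a repressor that holds back the plasma cell program, showed lower openness at a pair of proximal elements in CK. Between them, the peak at the gene start itself (chr4:32238098-32240695) leaned the other way and was not called. Its means were 78.3 ± 2.41 CPM (SD) in WT and 86.6 ± 9.05 in CK. The change in CK was 0.15 ± 0.06 (SE) against WT (edgeR adjusted p = 0.104) and 0.22 ± 0.06 (SE) against C (adjusted p = 0.0267). The proximal region thus did not close as a whole. The peak 9.62 kb upstream of the gene start (chr4:32228482-32229888) had 47.6, 43.7, 47.3 and 49.0 CPM in the WT mice and 40.4, 39.5, 42.8 and 44.0 in the C mice. K mice had 37.5, 37.4, 38.6 and 39.9 CPM and CK mice 41.1, 38.1, 37.9, 34.4 and 36.1. All K and CK mice lay below every WT mouse, and C lay between, overlapping both WT and CK. The log2 fold change was -0.29 ± 0.06 (SE) in K (edgeR adjusted p = 0.00364) and -0.32 ± 0.05 (SE) in CK (adjusted p = 0.000236). In C it was -0.17 ± 0.06 (SE), which was not called (adjusted p = 0.262). Bach2 upstream was the single member peak called in K against WT.

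The inner Bach2 start peak, 10.6 kb into the gene (chr4:32247595-32251264), was the strongest of the locus. It had 149, 151, 162 and 164 CPM in WT and 134, 131, 154 and 159 in C. In K it had 138, 137, 139.9 and 148 CPM and in CK 139.6, 127, 122, 131 and 142. Each CK mouse was below each WT mouse, and the C mice split into a lower and a higher pair, of which the lower pair carried Y chromosome signal. The peak fell by 0.24 on the log2 scale in CK (SE 0.05, edgeR adjusted p = 0.00389). Its log2 fold change was -0.16 among libraries with Y chromosome signal and -0.32 among those without. Another called site lay 383 kb from the gene start, inside Casp8ap2 (chr4:32620930-32622239), with 4.28 ± 0.255 CPM in WT (SD, n = 4), 4.57 ± 0.477 in C (n = 4), 2.99 ± 0.355 in K (n = 4) and 3.00 ± 0.400 in CK (n = 5). K and CK had close means there, at -0.52 ± 0.13 (SE) in K (adjusted p = 0.0209, not called) and -0.52 ± 0.12 (SE) in CK (edgeR adjusted p = 0.00592). It was also lower in K and in CK than in C, with adjusted p = 0.00922 and 0.00407.

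Across the whole Bach2 locus, WT mice had 825, 857, 867 and 886 CPM and CK mice 811, 771, 811, 835 and 846. The groups overlapped, and the sum changed by -0.08 ± 0.04 (SE) on the log2 scale (edgeR adjusted p = 0.136). The C sum was 849 ± 42.5 CPM (SD, n = 4) and the K sum 823 ± 35.6 (n = 4). Of the 90 peaks, 47 were below 0 in CK and 26 in C, and the median over the locus was -0.01 in CK and 0.10 in C.

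HHEX, a homeobox factor required for memory B cells, had 1 called site, 37.3 kb downstream of its start (chr19:37471400-37472906). WT mice had 20.7, 21.9, 22.5 and 22.1 CPM there and C mice 19.5, 19.6, 23.9 and 25.1. The K mice were at 18.1, 17.6, 19.6 and 19.6 CPM and the CK mice at 18.2, 17.9, 17.7, 17.5 and 15.4. All CK mice were lower than all WT and C mice. This gave -0.33 ± 0.08 (SE) against WT (edgeR adjusted p = 0.00483) and -0.34 ± 0.08 (SE) against C (adjusted p = 0.00954). C and WT had nearly the same mean, while the C mice spread over the widest range.

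The Hhex start peak leaned the other way. WT mice had 30.2, 34.5, 28.7 and 29.2 CPM and CK mice 35.3, 35.5, 36.3, 33.0 and 30.7, and the groups overlapped (0.16 ± 0.06 (SE), edgeR adjusted p = 0.0752). Over the whole locus the sum was 99.8 ± 3.72 CPM in WT (SD, n = 4), 106 ± 7.48 in C (n = 4), 92.5 ± 4.41 in K (n = 4) and 99.4 ± 7.93 in CK (n = 5). K was lower than C without overlap, at 89.9, 88.3, 98.3 and 93.6 CPM against 99.1, 100.1, 114 and 110.3. That difference was -0.19 ± 0.06 (SE) with an edgeR adjusted p of 0.0399 and was not called. The CK sum differed from WT by -0.0045 (SE 0.05), so the loss at the downstream site did not show in the sum.

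KLF2, a zinc finger factor of B cell quiescence and homing, had no called peak. The peak with the lowest unadjusted p in CK lay 46.6 kb downstream, inside the body of Eps15l1 (chr8:72364806-72366449). Its values were 25.8, 25.9, 28.9 and 27.5 CPM in WT and 24.3, 24.8, 24.1 and 25.6 in C. K mice had 22.9, 21.97, 24.9 and 27.6 CPM and CK mice 21.6, 21.4, 22.7, 24.8 and 24.4. The CK mice lay below the WT mice, but the change of -0.23 ± 0.07 (SE) had an edgeR adjusted p of 0.0201. At the Klf2 start peak, the densest of these start peaks after that of Zbtb20 at 61.0 CPM per kb, WT and CK overlapped (0.02 ± 0.05 (SE), adjusted p = 0.849). The locus sum was 357, 339, 342 and 356 CPM in WT and 332, 332, 307, 339 and 337 in CK. All CK sums were below the WT sums, though the highest CK and lowest WT mouse lay side by side, and 1 CK mouse was well under the rest. The change was -0.08 ± 0.03 (SE) (edgeR adjusted p = 0.0831, exact two-sided permutation p = 0.0159, unadjusted, the smallest that 4 and 5 mice allow). With a correction for GC content the sum was lower, at -0.16, and called (adjusted p = 0.00106), and the mean log2 CPM over its peaks gave -0.16 as well. The direction turned with shorter windows, to 0.02 with the gene body alone and 0.05 with 10 kb. Peaks away from the start summed to 279 ± 8.11 CPM in WT (SD, n = 4) and 259 ± 7.78 in CK (n = 5, exact permutation p = 0.0159).

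ZBTB20, a BTB zinc finger repressor used by B cells and plasma cells, was the locus with called sites in both directions. A broad peak over an exon, 589 kb into the gene (chr16:43462964-43466294), had 12.9, 16.1, 14.7 and 16.3 CPM in WT and 19.4, 19.1, 23.6 and 19.8 in C. In K it had 17.6, 19.6, 18.1 and 16.7 CPM and in CK 17.2, 20.9, 19.97, 19.3 and 20.2. Every mutant mouse was above every WT mouse. The change was 0.38 ± 0.08 (SE) in CK (edgeR adjusted p = 0.00316). C had the highest mean (0.45 ± 0.09 (SE), adjusted p = 0.0137) and K the lowest of the mutants (0.26 ± 0.09 (SE), adjusted p = 0.0842), but neither was called. With the replicate block, C was called at 0.45 ± 0.08 (SE, adjusted p = 0.00376). CK differed from C by -0.07 ± 0.08 (SE) (adjusted p = 0.689).

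The other opened site was a small intronic peak, 659 kb into Zbtb20 (chr16:43534867-43535156). WT mice had 0.160, 0.157, 0.281 and 0.221 CPM and C mice 0.236, 0.406, 0.404 and 0.584. K mice had 0.425, 0.453, 0.314 and 0.692 CPM and CK mice 0.591, 0.915, 0.568, 0.498 and 0.749. CK did not overlap WT, and the log2 fold change of 1.64 ± 0.37 (SE) was the largest among the called member peaks (edgeR adjusted p = 0.00335). It rests on 3 to 6 fragments per WT library and 10 to 17 per CK library.

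Further along, 2 Zbtb20 sites closed in CK. The exonic peak at 703 kb (chr16:43577952-43579311) had 11.1 ± 1.66 CPM in WT (SD, n = 4), 10.3 ± 0.706 in C (n = 4), 8.53 ± 0.624 in K (n = 4) and 8.28 ± 0.551 in CK (n = 5), a change of -0.43 ± 0.10 (SE) in CK (edgeR adjusted p = 0.00458). The peak at 779 kb, beyond the gene and inside Tigit (chr16:43654450-43655888), had 19.1 ± 1.32 CPM in WT (SD, n = 4), 16.4 ± 1.35 in C (n = 4), 15.6 ± 2.42 in K (n = 4) and 14.2 ± 1.68 in CK (n = 5), a change of -0.43 ± 0.10 (SE) (edgeR adjusted p = 0.00389). TIGIT is an inhibitory receptor of lymphocytes. An intronic site at 573 kb (chr16:43447987-43449083) was called between mutants only, with 4.59 ± 0.306 CPM in C (SD, n = 4) and 2.97 ± 0.300 in CK (n = 5), and -0.62 ± 0.12 (SE) for CK against C (adjusted p = 0.00429). WT, at 3.57 ± 0.313 CPM (n = 4), lay between these groups. The Zbtb20 start peak, the densest of the 9 at 106 CPM per kb, overlapped between WT and CK (0.04 ± 0.04 (SE), adjusted p = 0.608). With gains and losses together, the locus sum was 643 ± 36.7 CPM in WT (SD, n = 4) and 629.5 ± 36.1 in CK (n = 5), a change of -0.03 ± 0.04 (SE) (edgeR adjusted p = 0.618).

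ZBTB32, a related repressor that limits memory B cell recall, lost openness at an inner start, 5.00 kb into the gene (chr7:30592951-30594867). The WT mice were at 67.7, 70.3, 70.1 and 71.6 CPM and the C mice at 64.9, 68.1, 69.3 and 69.8. The K mice had 66.5, 64.5, 66.3 and 61.5 CPM and the CK mice 57.0, 60.0, 62.2, 64.7 and 59.1. CK and K each lay below WT without overlap, and CK overlapped K. The change in CK was -0.21 ± 0.04 (SE) (edgeR adjusted p = 0.00201), while K at -0.11 ± 0.05 (SE) (adjusted p = 0.149) and C at -0.04 ± 0.05 (SE) (adjusted p = 0.856) were not called. With its 5′ neighbor, the start region summed to 97.3 ± 3.53 CPM in WT (SD, n = 4) and 84.9 ± 3.44 in CK (n = 5, exact permutation p = 0.0159). The rest of the locus had 309 ± 9.77 CPM in WT and 304 ± 4.86 in CK (exact permutation p = 0.397). This window holds 12 other coding genes, among them Kmt2b, and 7 of its 11 peaks lie at starts of other genes. The locus sum (-0.06 ± 0.03 (SE), edgeR adjusted p = 0.115) thus also measures those genes. With shorter windows the change was larger and called. It was -0.13 with the gene body alone (edgeR adjusted p = 0.00761) and -0.13 with 10 kb (adjusted p = 0.00524).

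**Figure D3:**
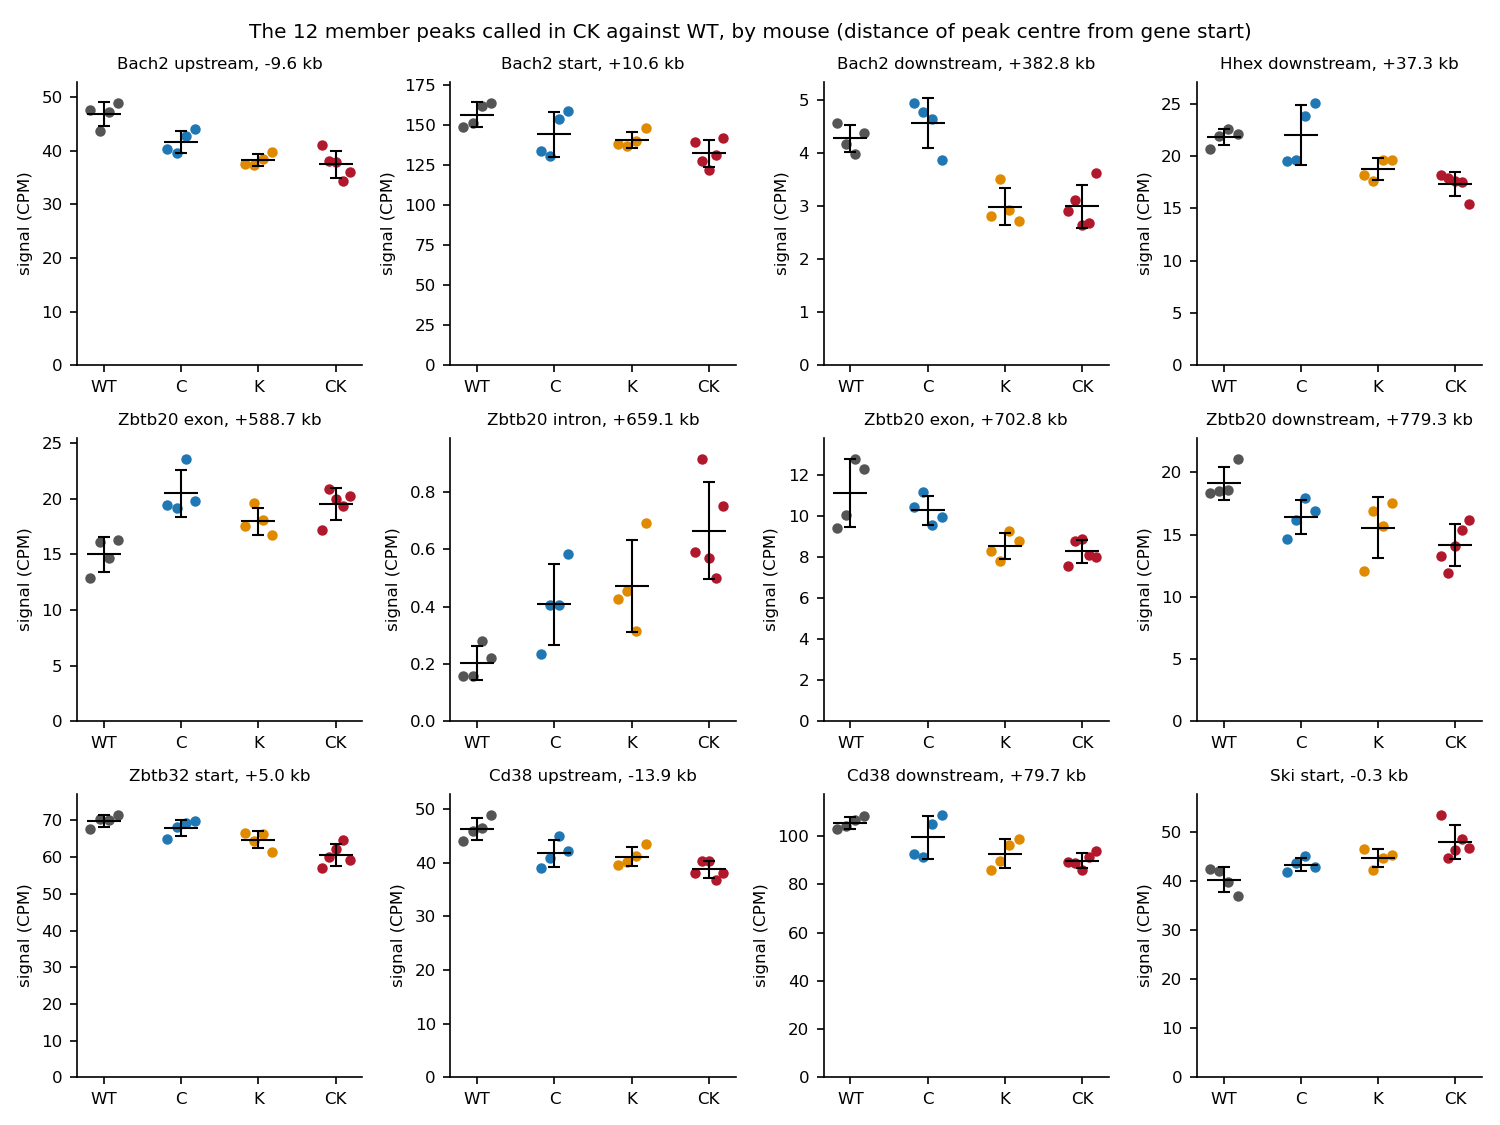
Signal in CPM (y axis) of the 12 member peaks called in CK against WT for each mouse (points), with the group mean and SD (bars), for WT, C, K and CK. At each of the 12 peaks the CK mice lie on one side of all WT mice, and C and K lie between or beside them.

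The corepressor genes gave 1 called site. At the start of Ski, a corepressor of SMAD signaling, the peak (chr4:155221689-155224003) had 42.4, 41.9, 39.8 and 36.9 CPM in WT and 41.8, 43.6, 45.0 and 42.8 in C. K mice had 46.6, 42.3, 44.7 and 45.3 CPM and CK mice 53.5, 44.7, 46.2, 48.5 and 46.7. All CK mice exceeded all WT mice. The gain was 0.25 ± 0.05 (SE) (edgeR adjusted p = 0.00255). With counts adjusted for GC content in 20 bins, the sign turned, to -0.05 (adjusted p = 0.492), and this is the peak whose sequence above is dense in CG. The remaining Ski peaks summed to 120.5 ± 10.1 CPM in WT (SD, n = 4) and 118 ± 8.38 in CK (n = 5, exact permutation p = 0.778). The locus sum was 177, 162, 155 and 149 CPM in WT and 179, 169, 159, 172 and 153 in CK, which overlapped throughout (0.05 ± 0.05 (SE), edgeR adjusted p = 0.485).

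Tle3, which encodes a Groucho-family corepressor, had no called peak. The site with the lowest unadjusted p was a small one 71.7 kb from the start (chr9:61443968-61444254), at 1.70, 1.41, 1.12 and 1.44 CPM in WT and 1.27, 1.62, 1.52 and 1.91 in C. K mice had 0.849, 0.453, 1.204 and 0.830 CPM and CK mice 0.689, 0.592, 1.47, 0.797 and 0.576. A single CK mouse lay within the WT range and the other 4 below it (-0.75 ± 0.26 (SE), edgeR adjusted p = 0.0517). Its start peak, which held 63.8% of the locus signal, had 149.6 ± 5.41 CPM in WT (SD, n = 4) and 139 ± 7.84 in CK (n = 5), not called at -0.11 ± 0.05 (SE) (adjusted p = 0.119). The locus sum was 243, 234, 221 and 230.0 CPM in WT and 225, 216, 216, 209 and 218 in CK. The groups met at their edges, and the change was -0.10 ± 0.03 (SE) (edgeR adjusted p = 0.0174, exact permutation p = 0.0317). Tle3 was the locus with the second lowest adjusted p in CK.

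Cd38 encodes the surface enzyme that mouse GC B cells turn down. The study gates GC B cells as CD38-negative and FAS-positive, so cells of every genotype were selected for low CD38 protein. The Cd38 locus sum was lower in CK, by the widest margin of the 9 in this fit. It was not the widest with a GC correction, the mean log2 CPM over peaks or any other window tried. Nor was it without WT replicate 4 or in libraries with Y chromosome signal only. The Cd38 window also holds 3 other coding genes (Fbxl5, Bst1 and Gm7879), and 2 of its 15 peaks lie at starts of other genes. The peak 13.9 kb upstream (chr5:43853170-43856175) had 44.0, 45.8, 46.5 and 49.0 CPM in WT and 39.0, 40.9, 45.0 and 42.2 in C. K mice had 39.5, 40.1, 41.3 and 43.6 CPM and CK mice 38.1, 40.4, 40.3, 36.8 and 38.1. CK and K were below WT without overlap, and C overlapped WT. The change was -0.26 ± 0.05 (SE) in CK (edgeR adjusted p = 0.00117), -0.17 ± 0.05 (SE) in K (adjusted p = 0.0589) and -0.15 ± 0.05 (SE) in C (adjusted p = 0.337), and CK alone was called.

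The second Cd38 site, 79.7 kb downstream of the gene start (chr5:43947296-43949285), was the most open peak of the locus and overlaps the starts of the annotated transcripts Gm43183 and Gm43184. WT mice had 103, 104, 107 and 108 CPM and C mice 92.7, 91.3, 105 and 109. K mice had 86.1, 89.7, 96.3 and 98.9 CPM and CK mice 89.2, 89.0, 85.9, 91.5 and 94.1. All K and CK mice were lower than all WT mice, and the C mice again formed a lower and a higher pair, of which the lower pair carried Y chromosome signal. The peak changed by -0.23 ± 0.05 (SE) in CK (edgeR adjusted p = 0.00304), and within libraries with and without that signal by -0.21 and -0.26. K, at -0.19 ± 0.05 (SE), was not called (adjusted p = 0.0419).

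The Cd38 start peak moved in the opposite direction to these flanking sites. It was weak, with 13.8, 14.4, 12.8 and 12.96 CPM in WT and 13.2, 14.3, 14.96 and 12.5 in C. K mice had 17.9, 14.95, 15.5 and 16.1 CPM and CK mice 14.9, 18.1, 16.9, 17.9 and 14.3. K lay above WT without overlap and CK overlapped WT. Neither K (0.25 ± 0.09 (SE), edgeR adjusted p = 0.0976) nor CK (0.28 ± 0.09 (SE), adjusted p = 0.0249) was called. The peak held 4.48% of the locus signal, at 8.90 CPM per kb, the lowest density among the main start peaks.

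Summed over its 15 peaks, the Cd38 locus had 345, 347, 348 and 374 CPM in WT and 320.5, 332, 324, 325 and 324 in CK. No CK sum reached the lowest WT sum, and 1 WT mouse stood above the others. The C sums were 315, 312, 348 and 346 CPM and the K sums 326, 329, 341 and 347. The change in CK was -0.12 ± 0.03 (SE) (edgeR adjusted p = 0.0131, exact permutation p = 0.0159), just outside the threshold. It passed when DESeq2 replaced edgeR (adjusted p = 0.00453) and when only WT and CK were fitted (adjusted p = 0.0063). The value depended on the window, at -0.07 for the gene body alone (adjusted p = 0.194), and without WT replicate 4 it was -0.09 (adjusted p = 0.0792). Beside it, the start peak of Fcer2a (CD23, a marker of resting B cells) had mean levels of 28.5 CPM in WT and 23.2 in C, and lower means of 16.3 in K and 17.3 in CK, and the part of such cells in the Cd38 values was not tested.

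Nt5e, which encodes the memory marker CD73, had no called peak. Its lowest unadjusted p was at a narrow peak 31.2 kb upstream (chr9:88295878-88296156), with 6.01, 5.17, 4.87 and 5.15 CPM in WT and 6.84, 5.86, 6.93 and 5.73 in C. K mice had 7.005, 5.89, 5.65 and 6.78 CPM and CK mice 7.19, 8.94, 7.95, 6.33 and 6.05. The CK mice were just above the WT mice, by 0.46 ± 0.12 (SE) (edgeR adjusted p = 0.0107), which missed the threshold narrowly. At the start peak, which held 43.5% of the locus signal, means were 62.4 ± 4.36 CPM in WT (SD, n = 4), 68.5 ± 4.07 in C (n = 4), 69.1 ± 2.70 in K (n = 4) and 66.8 ± 4.20 in CK (n = 5). All 3 mutants overlapped WT. The locus sum was 148 ± 7.39 CPM in WT and 155 ± 8.69 in CK, a change of 0.07 ± 0.04 (SE) (edgeR adjusted p = 0.275).

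**Figure D4:**
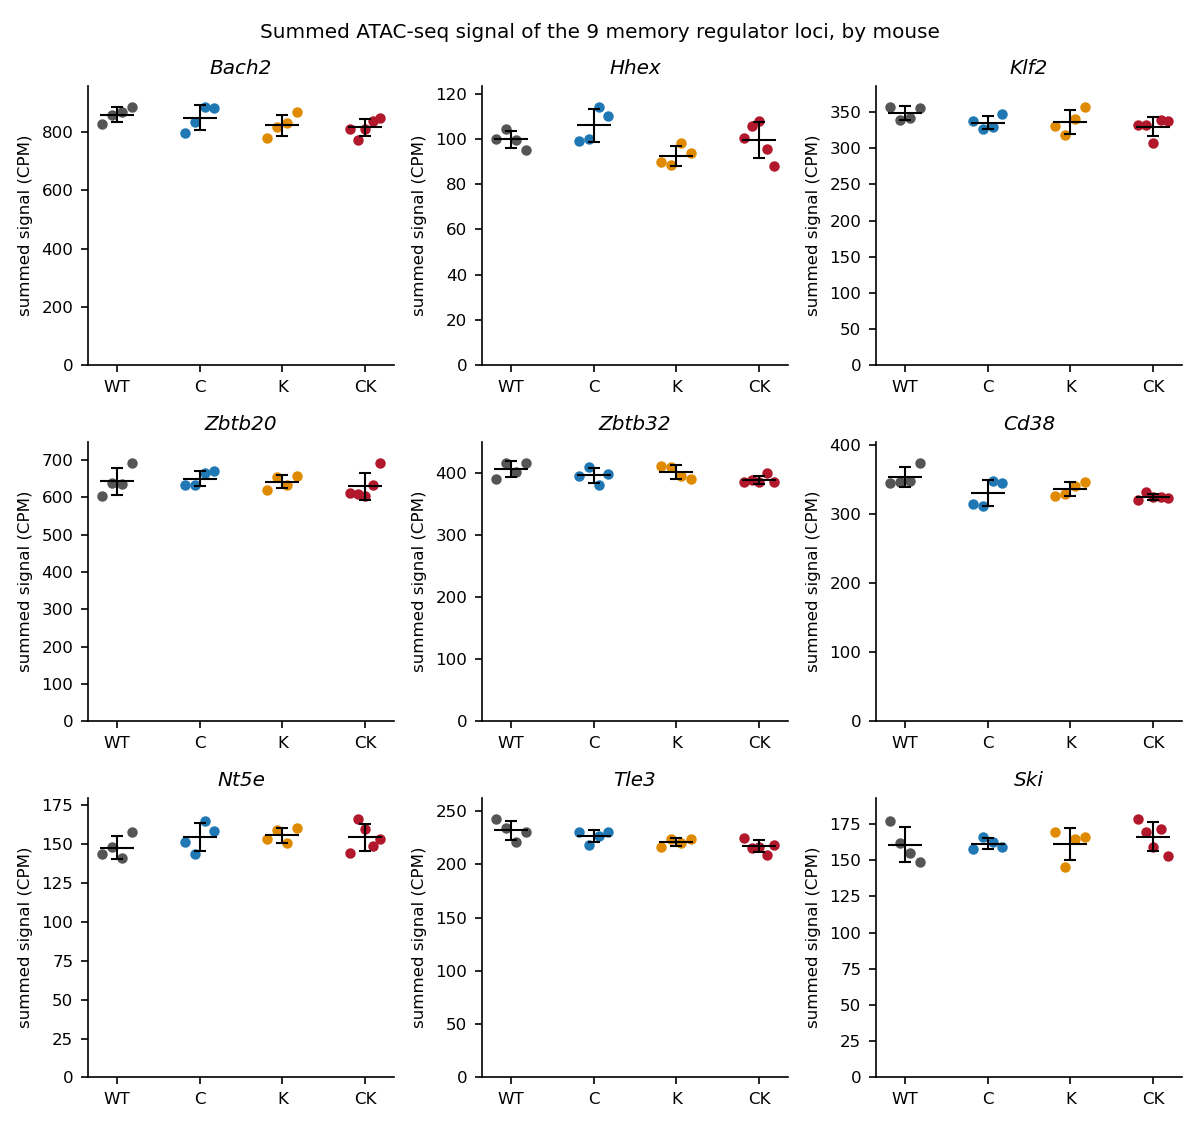
Summed ATAC-seq signal in CPM (y axis, from 0) of all peaks of each locus for each mouse (points), with group mean and SD (bars), for WT, C, K and CK. Only for Klf2 and Cd38 do all CK mice lie below all WT mice, and the shift is small beside the level of the locus.

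Levels can be compared between loci only per length of peak. Zbtb32 had the highest density at 24.6 CPM per kb over all mice, followed by Klf2 at 19.5, Nt5e at 17.9, Cd38 at 16.7 and Ski at 15.97. Tle3 had 12.8 CPM per kb, Zbtb20 10.6, Bach2 8.02 and Hhex 7.93. Within Bach2, the start peaks had 28.0 CPM per kb and its other peaks 6.31.

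A list of 20 further genes of memory B cells was read through the same windows. In CK, 4 of the 20 were called, 2 higher and 2 lower, where 11.6% of all windows were called. Without WT replicate 3 or 4 the count was 2 or 1. The share of all windows called by DESeq2 or with a mouse left out is not given here. In C and K, 0 were called. At an unadjusted p under 0.05 the list had 0 genes for C, 11 for K and 9 for CK, while 9.96%, 26.9% and 36.4% of all windows passed. DESeq2 called 0 in C and 1 in K. Ccr7, a homing receptor of resting lymphocytes, was lower in CK (-0.21 ± 0.04 (SE), adjusted p = 0.000250), as was Il9r, a cytokine receptor of memory B cells (-0.18 ± 0.04 (SE), adjusted p = 0.00155). Bmi1, a Polycomb subunit, was higher (0.24 ± 0.06 (SE), adjusted p = 0.00306), also against C (0.25 ± 0.06 (SE), adjusted p = 0.00572), where it was the only gene of the list called. Klf3 was higher too, a repressor of the KLF family (0.19 ± 0.04 (SE), adjusted p = 0.00249). Cd80 (0.03 ± 0.03 (SE), adjusted p = 0.460) and Pdcd1lg2 (-0.08 ± 0.03 (SE), adjusted p = 0.0947), surface markers of memory subsets, were not called. The median log2 fold change of the 20 was -0.06 in CK, beside 0.03 over all windows.

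Of the 12 peaks called in CK, 0 passed the threshold in the 9 libraries with Y chromosome signal and 2 in the 8 without it. All 12 kept their direction in both classes, though the same mice had been used to call them. Each class holds only 2 or 3 mice of WT and CK, and the part of the Y chromosome signal in these results was not tested further.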

How the data were processed

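ATAC-seq was measured in 17 GC B cell libraries of 4 genotypes. Reads had been aligned to mm10 in an nf-core run, and the authors deposited raw counts of fragments per consensus peak, made with featureCounts 2.0.1 at a minimum overlap fraction of 0.2. Peaks were shared by all libraries. The 7 centroblast and centrocyte libraries were not analysed here.

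Peaks with at least 10 counts in all were scaled by TMM and fitted over all 17 libraries with 1 mean per genotype (edgeR 4.0.16 quasi-likelihood test, R 4.3.3), and p-values were adjusted by the Benjamini-Hochberg method over all peaks. A peak was called at an adjusted p under 0.01. Counts of all peaks in a gene body extended by 50 kb were summed for 18082 coding genes and fitted likewise. Genes were placed with the GENCODE M21 annotation. A peak within 1 kb of an annotated transcript start was a start peak. Values are CPM on TMM-scaled totals. Sums were also compared by exact two-sided permutation tests over mice (scipy 1.17.1), unadjusted, whose smallest p is 0.0159 for 4 against 5 mice.

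The 9 members, the 20 memory genes and the marker genes were chosen with earlier results of these data known. Every called member peak was counted. For each gene, up to 2 called peaks with the lowest adjusted p in CK are given by mouse, or, with none called, the peak with the lowest unadjusted p in CK. Alternatives were DESeq2 1.42.0, other scalings and filters, a GC correction, a replicate block, other windows and thresholds, and omission of each mouse. The comparisons within libraries with or without Y chromosome signal were chosen after seeing the data. The scripts were tested on simulated data, with 200 features changed in CK against WT. Of 200 peaks changed 1.5-fold, 78 were called, and of 200 changed 2-fold, 134. For gene windows these counts were 186 and 197. A peak that was not called can thus still have changed. Values of some marker genes are not reported here. Deviations from the group means of same-numbered mice of WT and C correlated at 0.144 to 0.246 in 4 of 4 pairs, so the replicate block is given beside their comparison. The labels do not say what a number marks, and both mice of each such pair had or lacked Y chromosome signal alike.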

Additional observations from a re-analysis of the deposited data

Results flagged for a closer look

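In 6 of 100 groups of mice checked, 1 mouse stood apart from the others by Dixon's test, and chance alone gives about 1 in 20 groups. Among locus sums, CK replicate 3 had 307 CPM at Klf2 where the other CK mice had 332 to 339, and WT replicate 4 had 374 CPM at Cd38 where the other WT mice had 345 to 348. Among peaks, CK replicate 5 had 15.4 CPM at the called Hhex site (others 17.5 to 18.2), and C replicate 3 had 23.6 CPM at the exonic Zbtb20 site that opened (others 19.1 to 19.8). WT replicate 4 had 21.1 CPM at the Zbtb20 site inside Tigit (others 18.3 to 18.6), and CK replicate 3 had 1.47 CPM at the small Tle3 site (others 0.576 to 0.797). The causes were not tested.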

How the results depend on the processing

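Of 12 member peaks called in CK against WT, 0 were called with only libraries with Y chromosome signal, 2 without it, 1 above a 1.5-fold change, and 6 and 7 with the gene body alone or extended by 10 kb. The range was 3 to 12 when single mice were left out. Shares of all peaks called under these settings are not given here. The C count of 0 became 1 under DESeq2, the replicate block, Y signal as a factor and an adjusted p under 0.05. The K count of 1 became 2 under the replicate block and with 100 kb windows, 6 at an adjusted p under 0.05, and 0 in libraries with or without Y signal, above 1.5-fold, with the gene body alone and on omission of single mice (0 to 1). For K against C the count of 1 became 3 (DESeq2), 2 (replicate block, 100 kb), 5 (adjusted p under 0.05) and 0 under loess offsets, Y signal as a factor, GC bins, either Y class, 2 genotypes fitted, and shorter windows, with 0 to 1 on omission. For CK against C the count of 3 became 7 at an adjusted p under 0.05, 1 with Y signal, 2 genotypes fitted or shorter windows, 0 without Y signal, and 0 to 3 on omission.

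No locus sum was called in the reported fits. In CK there was 1 with DESeq2, Y signal as a factor or 2 genotypes fitted (Cd38 in each), and 1 with shorter windows (Zbtb32). There were 2 with the replicate block (Bach2 at -0.09, adjusted p = 0.00896, and Cd38) and 2 at an adjusted p under 0.05 (Cd38 and Tle3). GC bins gave 3 (Tle3, Klf2 and Zbtb32), and omission of single mice 0 to 1. In K there was 1 with GC bins, and for K against C 1 with the replicate block, an adjusted p under 0.05 or 100 kb. Of the 20 memory genes, the 4 in CK became 0 and 2 in libraries with and without Y signal, 0 above 1.5-fold, and 1 to 4 on omission. The 0 in K became 1 (total counts, loess, DESeq2, GC bins, 10 kb), 2 (replicate block, gene body alone), 4 (adjusted p under 0.05) and 0 to 1 on omission. Shares of all windows called under these settings are not given here, so these counts of loci and genes have no baseline.

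Directions turned for sums near 0. The Hhex sum in CK went from -0.0045 to 0.00395 (total counts), 0.00147 (loess), 0.0344 (replicate block), 0.0497 (without Y signal), 0.16 and 0.15 (gene body alone and 10 kb), and -0.0352 to 0.0349 on omission of single mice, above 0 without WT replicate 2 or CK replicate 4 or 5. Klf2 became 0.0179 and 0.0476 with those windows, Zbtb20 ranged from -0.0656 to 0.00752 on omission, above 0 without WT replicate 4, and Nt5e -0.0031 with Y signal. With GC bins the Ski sum became -0.0976 and the Ski start peak -0.0544. The causes were not tested.

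Same-numbered mice of different genotypes had correlations of -0.0822 to 0.246 over 24 pairs. All 4 pairs of WT and C were over 0.1, but not all pairs of any other 2 genotypes, where the numbers were not taken to pair the mice. Of 16 libraries with a partner, 10 correlated best with their own number, and the replicate block kept all 12 peaks called in CK. At a median of 75 fragments per member peak, counting error limits the weak sites most.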
